A study of Mus musculus with 12 samples.

Results

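Genes that run DNA replication and cell division were followed in scrapings of the lining of the ileum, where the small intestine ends, in mice of 2 genotypes on 2 diets. The set was a list of 40 genes of the cell cycle. A gene counted as measured where the array had a probe set (a group of short probes for 1 transcript) annotated with its symbol alone, and a gene with several was read from the one with the highest mean over the 12 arrays. By this rule 37 of the 40 genes were measured, of 12393 genes in all: 17 of 17 genes of S phase and its preparation, and 20 of 23 genes of mitosis. Ccnb1, Cdkn3 and Cdca8 had no such probe set.

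The mice were males aged 6 to 8 weeks, either wild-type C57BL/6 or null for cytochrome P450 reductase (POR), the enzyme that passes electrons to microsomal P450 enzymes. The labels give C57BL/6 as the strain of both genotypes and leave unsaid which tissues lack the reductase. All mice first spent 14 days on a soya-free powdered diet, RM3 (E). They then ate this diet alone (control) or with quercetin, a plant flavonol, at 6.2 g per kg or 7 mg per mouse, and were killed 24 h later. The 4 groups were wild-type control, wild-type quercetin, POR-null control and POR-null quercetin, with 3 arrays each. Every array carried RNA pooled from 3 mice, so errors and p-values describe the spread between pools, and the number of arrays limits the precision. Without a probe set for Por in use here, genotype was taken from the labels alone.

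Before a cell copies its DNA, Cdc6 and Cdt1 load the ring of Mcm2, Mcm3, Mcm4, Mcm5, Mcm6 and Mcm7 onto replication origins, and Cdc45 and the GINS complex then turn this ring into the active helicase. E2F transcription factors switch on many of these genes as the cell commits to S phase, while many genes of mitosis are transcribed later, through promoter elements called CHR and the CCAAT box. In the intestine, division takes place in the crypts, which feed the non-dividing enterocytes of the villi, and lymphocytes of the lining can divide as well. The arrays measured bulk RNA, so fewer dividing cells and less of these transcripts per dividing cell cannot be told apart.

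All values are log2 expression levels, on which a difference of 1 is a doubling. Array medians lay between 5.91 and 5.96. The labelled tissue fitted its markers, in that the median level was 11.13 for 8 general epithelial genes, 11.91 for 13 villus enterocyte genes and 11.04 for 8 genes of the ileal segment, against an array-wide median of 5.93. Wild-type control replicate 2 stood apart from the other arrays on the first principal component of all probe sets, at -25.6 where the others ranged from -10.8 to 10.6. List counts and medians, and named genes' differences that moved by over 1.5 times without it, are also given without it. No filter on low levels was applied, so all 37 members were tested. Of the S-phase members, 7 lay below the array-wide median level and 2, Cdc6 and Tyms, below the lower quartile of 4.74. Of the mitosis members, 5 lay below the median and 1, Bub1, below the lower quartile. Levels of different probe sets depend on the probes, so these placements against the array-wide levels are rough. The members' levels were not set against each other.

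The promoters of the S-phase and the mitosis members held different motifs, a property that the list did not use. RefSeq promoter windows of 300 bases (assembly GRCm38.p6, 250 before to 50 after the transcription start) were at hand for 31 members and not for Mcm4, Gins1, Ccna2, Aurkb, Tpx2 and Foxm1. They were searched on both strands for 3 motifs: the E2F site, the CHR (spelled TTTGAA) and the CCAAT box (its name being its 5 letters). The E2F site was spelled TTCCCGC, with TTCGCGC as a second accepted form, TTGCCGC as another and TTGGCGC as the last. An E2F motif was found in 8 of 15 S-phase members and 2 of 16 mitosis members, and in 10.9% of all 27025 genes with a window. A CHR was found in 2 of 15 S-phase members and 12 of 16 mitosis members, against 20.2% of all genes. The CCAAT box was common in both sets, in 9 of 15 and 14 of 16 members, against 41.1% of all genes. All 12 mitosis members with a CHR also had a CCAAT box, a pair that 7.97% of all genes held. In the mitosis members 14 of 17 CHR matches, counted per window, lay within 100 bases before to 50 after the start. Prc1 had 2 overlapping windows, and its CHR, at -5 in one and -30 in the other, was counted in both. The share of matches in this interval was not counted for all genes. A match describes the letters and does not show binding.

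The 250 bases before the start are printed for 5 members, of which Cdk1 holds both E2F and CHR motifs. Mcm6 and Mcm5, helicase subunits with the replication genes' E2F motifs, lie at chr1:128359706-128359955 on the minus strand and chr8:75109259-75109508 on the plus strand. The 3 mitosis genes are Cdk1, the kinase that starts mitosis, at chr10:69352913-69353162 on the minus strand, Top2a, the topoisomerase that untangles chromosomes, at chr11:99024190-99024439 on the minus strand, and Ube2c, a ubiquitin-conjugating enzyme of the anaphase-promoting complex, at chr2:164769679-164769928 on the plus strand. Each reads from 5′ to 3′ along its gene and ends at the base before the start. Capitals mark the motif matches on either strand, so a CCAAT box also shows as ATTGG and a CHR as TTCAAA, and matches that overlap run together.
Mcm6: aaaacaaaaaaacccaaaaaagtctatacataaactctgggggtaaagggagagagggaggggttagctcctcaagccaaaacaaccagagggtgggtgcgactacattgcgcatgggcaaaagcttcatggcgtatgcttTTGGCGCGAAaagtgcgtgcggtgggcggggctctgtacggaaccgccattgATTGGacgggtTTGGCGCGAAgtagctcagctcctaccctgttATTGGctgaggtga
Mcm5: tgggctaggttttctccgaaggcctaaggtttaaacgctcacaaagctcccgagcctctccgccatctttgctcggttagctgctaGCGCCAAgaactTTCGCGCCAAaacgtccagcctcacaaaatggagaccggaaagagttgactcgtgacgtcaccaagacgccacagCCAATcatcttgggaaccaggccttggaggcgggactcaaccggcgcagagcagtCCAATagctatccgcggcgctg
Cdk1: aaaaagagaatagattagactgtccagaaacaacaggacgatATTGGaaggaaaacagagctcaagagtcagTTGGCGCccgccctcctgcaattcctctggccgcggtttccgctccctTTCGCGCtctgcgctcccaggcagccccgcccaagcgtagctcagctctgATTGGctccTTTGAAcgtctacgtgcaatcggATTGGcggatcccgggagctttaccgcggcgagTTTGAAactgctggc
Top2a: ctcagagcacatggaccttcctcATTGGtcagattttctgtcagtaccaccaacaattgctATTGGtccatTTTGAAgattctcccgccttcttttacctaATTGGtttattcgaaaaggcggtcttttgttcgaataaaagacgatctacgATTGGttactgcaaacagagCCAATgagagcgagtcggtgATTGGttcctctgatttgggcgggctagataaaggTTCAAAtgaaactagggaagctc
Ube2c: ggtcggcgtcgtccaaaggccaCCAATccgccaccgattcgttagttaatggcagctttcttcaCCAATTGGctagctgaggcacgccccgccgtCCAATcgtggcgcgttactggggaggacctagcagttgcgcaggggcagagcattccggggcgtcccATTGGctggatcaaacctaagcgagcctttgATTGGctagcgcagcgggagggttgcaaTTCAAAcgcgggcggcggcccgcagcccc
The Mcm6 sequence holds 4 E2F matches in 2 overlapping pairs, beginning at positions -109, -106, -46 and -43 from the start, with a CCAAT box at -57 and another at -14. Mcm5 has its E2F matches farther out, at -164, -152 and -149, and neither of the 2 helicase genes has a CHR. Cdk1 holds all 3 kinds, with CHRs at -71 and -15 and E2F matches at -178 and -130. Top2a has 6 CCAAT boxes, the nearest at -58, and CHRs at -179 and -23. In Ube2c the one CHR lies at -29, after 6 CCAAT boxes.

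**Figure D1:**
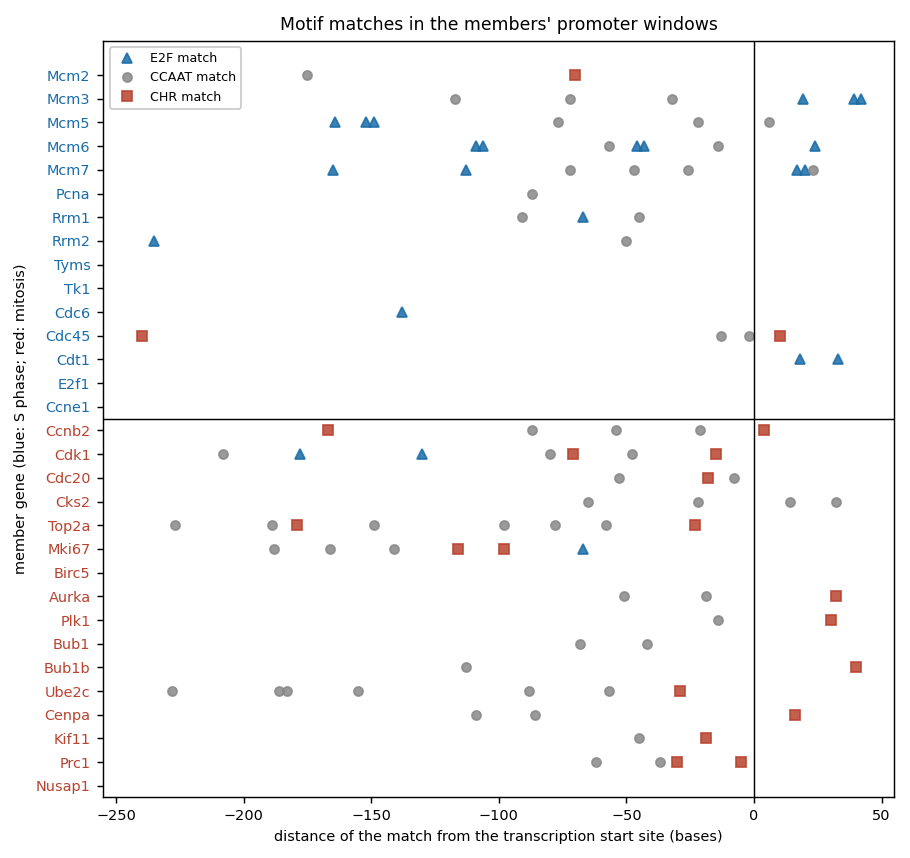
Positions of E2F (triangles), CCAAT (circles) and CHR (squares) matches in the promoter windows of 31 members, as the distance in bases from the transcription start (vertical line), with S-phase genes above and mitosis genes below the horizontal line. E2F matches gather in the upper block (8 of 15 genes) and CHR matches in the lower one (12 of 16 genes), most of them near the start.

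Across the 12 arrays the members varied more than most genes, and the mitosis members more than the S-phase members. The median residual SD within groups was 0.20 for the mitosis members and 0.13 for the S-phase members, against 0.11 over all 22626 probe sets, and 32 of the 37 members lay above that overall median. The ranges over the 12 arrays were widest for the helicase gene Mcm7 (1.28), Top2a (1.26), Mcm6 (1.14) and Mki67, the proliferation antigen Ki-67 (1.03). The narrowest belonged to Foxm1, the transcription factor that switches on mitosis genes, which stayed between 7.23 and 7.38 on all arrays.

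The low end of these ranges often fell on 1 pool, though its part in the residual SDs was not measured. Wild-type control replicate 2 had the lowest level of all 12 arrays for 21 of the 37 members, 8 of 17 S-phase and 13 of 20 mitosis genes, and lay below the gene's own mean for 31. Mcm7 read 7.34 there, and 8.04 to 8.62 on the other arrays. Top2a read 6.65 against 7.06 to 7.91, and Ube2c 6.37 against 6.46 to 7.23. POR-null control replicate 3 was below the gene's mean for 33 members and POR-null quercetin replicate 1 for 28. At the upper end, wild-type quercetin replicate 3 was above the mean for 30 members and POR-null quercetin replicate 2 for 31. The arrays at the top differed between the 2 phases: wild-type quercetin replicate 3 held the highest level for 7 of 17 S-phase but 1 of 20 mitosis members, and POR-null control replicate 1 for 2 S-phase and 7 mitosis members. Low and high arrays occurred together in wild-type control, POR-null control and POR-null quercetin, while in wild-type quercetin no array was low (26, 19 and 30 of 37 members above their means). None of these counts was made over all probe sets, where wild-type control replicate 2 also stood apart on the first principal component.

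**Figure D2:**
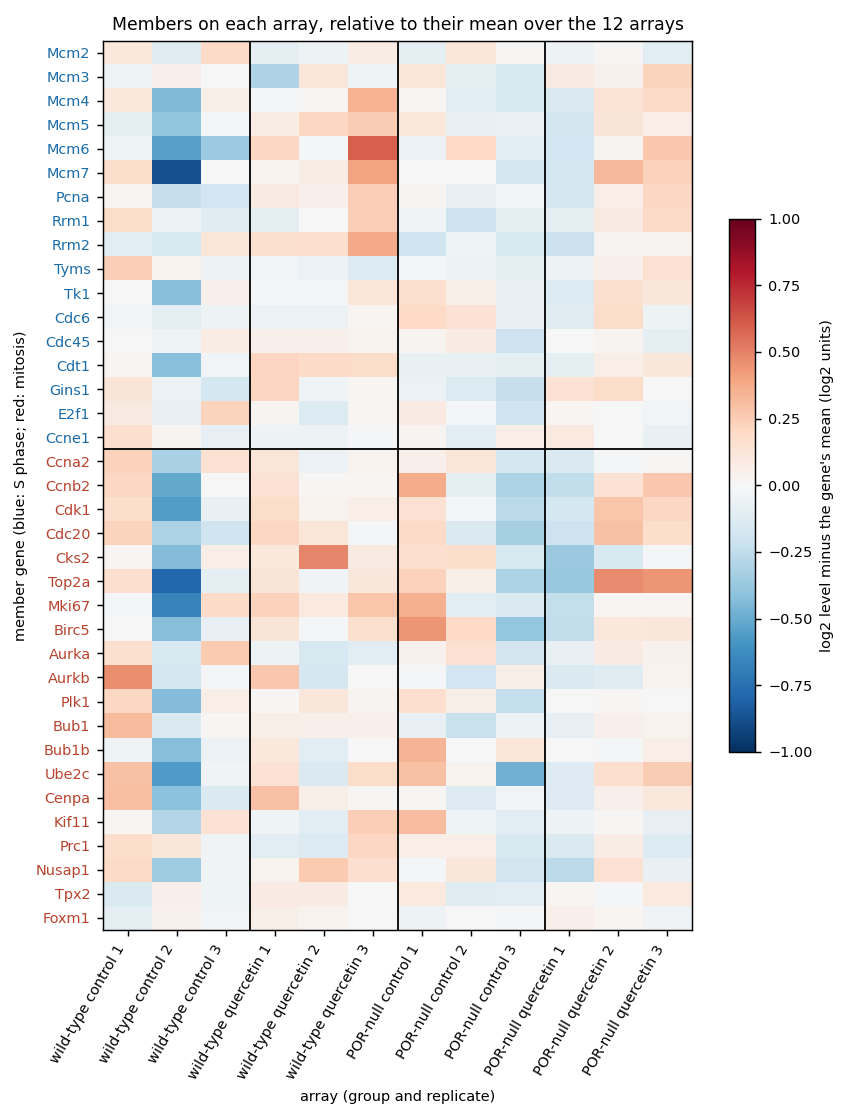
Each of the 37 measured members (rows, S-phase genes in blue and mitosis genes in red) on each of the 12 arrays (columns, grouped by genotype and diet), coloured by log2 level minus the gene's mean over the 12 arrays. Wild-type control 2 is blue for most rows (below the mean for 31 of 37 members), and POR-null control 3 and POR-null quercetin 1 are paler blue columns in other groups.

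A score per array, the mean of the members' log2 levels after centring each gene on its mean, gave the same picture in 2 numbers. The S-phase score of the wild-type controls was 0.05, -0.23 and -0.02, and that of the wild-type quercetin arrays 0.02, 0.03 and 0.16. In POR-null it was 0.01, -0.02 and -0.11 on control and -0.08, 0.09 and 0.08 on quercetin. The group means were -0.06 ± 0.14, 0.07 ± 0.08, -0.04 ± 0.06 and 0.03 ± 0.09 (SD, n = 3), so both genotypes had the higher mean on quercetin and in both the groups overlapped. The mitosis score was 0.14, -0.34 and 0.0025 in wild-type controls and 0.11, 0.02 and 0.08 on quercetin. In POR-null it was 0.16, -0.0035 and -0.17 on control and -0.15, 0.08 and 0.08 on quercetin. Its group means were -0.06 ± 0.25, 0.07 ± 0.04, -0.01 ± 0.17 and 0.0033 ± 0.13 (SD, n = 3), and again no group lay clear of another.

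Without wild-type control replicate 2 the wild-type control mean was 0.02 for S phase and 0.07 for mitosis (n = 2). The difference between wild-type quercetin and control then went from 0.14 to 0.05 for S phase, with a pooled SD within groups of 0.10, and from 0.13 to -0.0049 for mitosis, with a pooled SD of 0.16. Genotype on the control diet turned from 0.02 to -0.06 for S phase and from 0.06 to -0.08 for mitosis. The S-phase score minus the mitosis score had group means between -0.03 and 0.03, within its pooled SD of 0.09, so the balance between the 2 phases did not separate the groups.

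**Figure D3:**
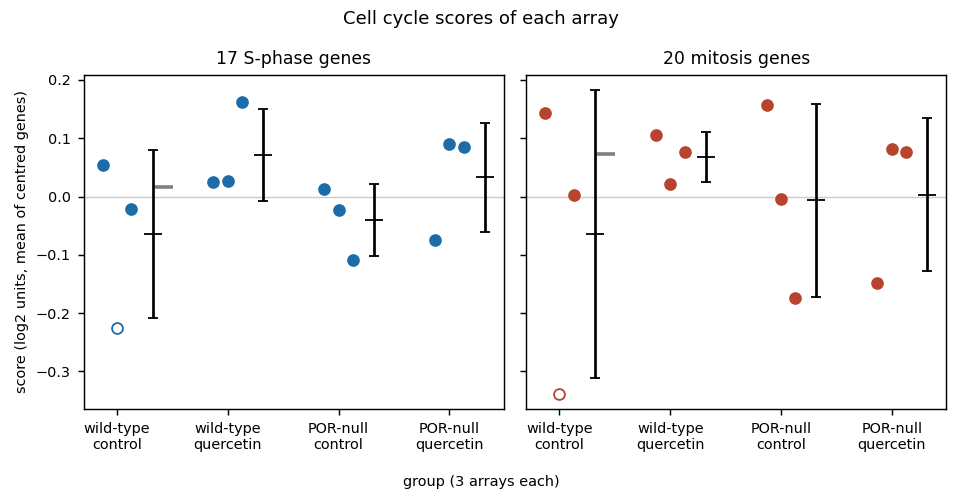
S-phase score (17 genes, left) and mitosis score (20 genes, right) of each array in log2 units, by group, with the mean and SD of the 3 arrays as bars and wild-type control 2 as an open point. The short grey line is the wild-type control mean without that array, 0.02 and 0.07, close to the wild-type quercetin means of 0.07 and 0.07.

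That array also differed in markers of position along the gut and of other cell types. Over 12 proximal small intestine genes its score was 0.74, against -0.32 to 0.30 on the other arrays, and its villus enterocyte score (13 genes) was 0.48, against -0.34 to 0.13. Its scores were the lowest of the 12 arrays for 6 Paneth cell genes (-0.57), 11 crypt stem cell genes (-0.23) and 11 T cell genes (-0.21). Both further lists of the same processes were lowest there too, 40 other replication genes at -0.15 and 43 other mitosis genes at -0.17. Their part in the low S-phase and mitosis scores was not tested.

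In wild-type mice, the comparison of diets asked whether 24 h of quercetin changed these genes. No member passed the test (limma, Benjamini-Hochberg over all 22626 probe sets, threshold 0.05). A single probe set, 0.00442% of all, passed. The median difference, quercetin minus control, was 0.10 for the S-phase members, with 12 of 17 higher, and 0.16 for the mitosis members, with 16 of 20 higher. Over all probe sets the median was -0.02 and 41.8% were higher. Of the S-phase members 5 were higher at an unadjusted p under 0.05, as were 5.32% of all probe sets, and in the same 5 every quercetin array read higher than every control array, as in 5.33% of all. Among the mitosis members only Cks2 met either mark. None was lower at an unadjusted p under 0.05, as 5.59% of all probe sets were.

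These 5 S-phase genes were Mcm6, Mcm5, Cdt1, Rrm2 and Pcna, which span licensing, the helicase, nucleotide supply and the polymerase clamp. Mcm6 read 7.14, 6.64 and 6.82 in wild-type controls and 7.39, 7.17 and 7.78 on quercetin. The 2 groups nearly touched, at 7.14 and 7.17. The difference was 0.58 ± 0.16 (SE; 95% interval 0.23 to 0.93), or 1.49-fold, with an adjusted p of 0.278, and 0.47 ± 0.17 without wild-type control replicate 2 (adjusted p = 0.547). The other Mcm6 probe set differed by 0.64 ± 0.18 (adjusted p = 0.278). In POR-null mice Mcm6 read 7.12, 7.38 and 7.07 on control and 6.99, 7.21 and 7.45 on quercetin, overlapping throughout. Wild-type control was thus the group with the lowest Mcm6 mean, 6.87 ± 0.25, below 7.19 ± 0.17 in POR-null control (SD, n = 3).

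Cdt1, the loader of the helicase, read 7.35, 6.91 and 7.30 in wild-type controls and 7.54, 7.52 and 7.51 on quercetin. The difference was 0.34 ± 0.10 (adjusted p = 0.290), and 0.20 ± 0.08 without wild-type control replicate 2 (adjusted p = 0.563), a drop of over 1.5 times. The quercetin pools were nearly equal, and the low control was replicate 2. Of the other Cdt1 probe sets 1 differed by 0.11 ± 0.14 (0.0050 without that array) and 1 by -0.05 ± 0.08, so the probe sets did not share a sign.

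For Mcm5, another helicase subunit, the wild-type controls stood at 5.41, 5.11 and 5.49 and the quercetin arrays at 5.58, 5.71 and 5.76. The difference was 0.35 ± 0.11 (adjusted p = 0.301), and 0.23 ± 0.10 without replicate 2 (adjusted p = 0.593). Rrm2, the regulated subunit of ribonucleotide reductase, which makes deoxynucleotides, stood at 5.90, 5.84 and 6.12 on control and 6.16, 6.17 and 6.38 on quercetin. It differed by 0.28 ± 0.10 (adjusted p = 0.330), and by 0.23 ± 0.11 without replicate 2. Pcna, the sliding clamp of the polymerases, stood at 8.76, 8.52 and 8.56 on control and 8.84, 8.80 and 9.00 on quercetin, a difference of 0.27 ± 0.10 (adjusted p = 0.364). Pcna ranked after the 4 genes the naming rule takes and is given to complete the 5.

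Without wild-type control replicate 2 the 5 genes kept quercetin arrays above the 2 remaining controls, a mark that 8.3% of all probe sets then met, and 3 of them (Mcm6, Cdt1 and Mcm5) had an unadjusted p under 0.05, as did 3.55% of all. On the lower side, all quercetin arrays of Mcm2 (-0.17 ± 0.09) and E2f1 (-0.185 ± 0.09) then lay below both controls, as in 14% of all probe sets. The S-phase median was 0.01 with 12 of 17 higher, where 43% of all probe sets were. The other 12 S-phase members had differences between -0.15 and 0.41 with all arrays. The highest, Mcm7, was at 0.09 without wild-type control replicate 2. The 12 include Mcm2, Mcm3, E2f1, Ccne1 (cyclin E, which drives entry into S phase) and Tyms (thymidylate synthase), the 5 that were lower. For Mcm2, Mcm3 and Tyms the sign rests on the chosen probe set. The other Mcm2 probe set was at 0.23 with all arrays and at 0.15 without wild-type control replicate 2. With all arrays 3 of the 4 other Mcm3 probe sets were above zero, up to 0.21. Without that array the 4 ran from -0.07 to 0.09. Of the 2 other Tyms probe sets 1 was above zero with all arrays, at 0.03. Without that array the 2 were at 0.0083 and -0.03.

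**Figure D4:**
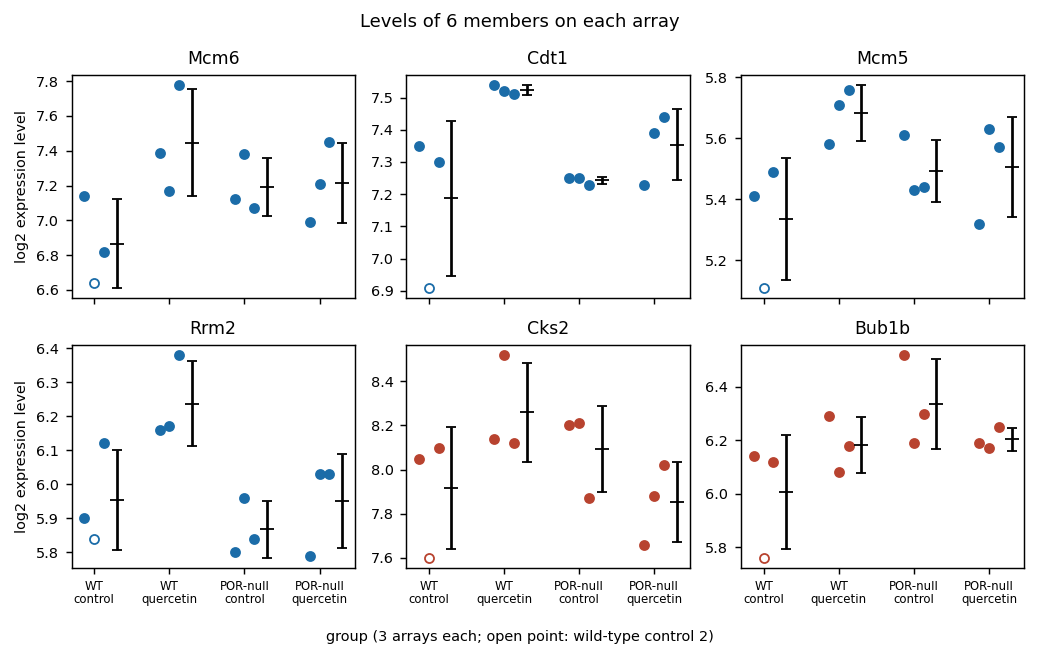
Log2 level of 6 members on each array, by group, with the mean and SD of 3 arrays as bars (S-phase genes in blue, mitosis genes in red, wild-type control 2 open; WT is wild type). In Mcm6, Cdt1, Mcm5, Rrm2 and Cks2 the wild-type quercetin arrays lie above the wild-type controls, and in all 6 panels wild-type control 2 is the lowest wild-type array.

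The mitosis members were higher by a similar median but with a wider spread and more weight on the low control array. Cks2, the small partner of cyclin-dependent kinases, read 8.05, 7.60 and 8.10 in wild-type controls and 8.14, 8.52 and 8.12 on quercetin, a difference of 0.34 ± 0.15 (adjusted p = 0.427). The groups came within 0.02 of each other, at 8.10 and 8.12, and quercetin replicate 2 was far above the rest. Without wild-type control replicate 2 the difference was 0.19 ± 0.14 (adjusted p = 0.755). Mki67 read 7.18, 6.53 and 7.39 on control and 7.43, 7.30 and 7.48 on quercetin, a difference of 0.37 ± 0.18 (adjusted p = 0.487), and 0.12 ± 0.14 without that array. Its 2 other controls lay beside the quercetin arrays. Bub1b, the BubR1 kinase of the spindle checkpoint, read 6.14, 5.76 and 6.12 on control and 6.29, 6.08 and 6.18 on quercetin, a difference of 0.18 ± 0.11 (adjusted p = 0.578), and 0.05 ± 0.10 without that array.

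Aurka, the Aurora A kinase of the spindle poles, went the other way. It read 6.49, 6.18 and 6.59 in wild-type controls and 6.28, 6.17 and 6.22 on quercetin, a difference of -0.20 ± 0.11 (adjusted p = 0.526). Here replicate 2 was the control nearest the quercetin arrays, and without it all quercetin arrays lay below both controls, as in 14% of all probe sets, with a difference of -0.32 ± 0.10 (adjusted p = 0.525). Without that array the mitosis median was 0.04, with 11 of 20 members higher, and Aurka was the only member of either list lower at an unadjusted p under 0.05, as were 4.67% of all probe sets. Ccna2 then also had all quercetin arrays below both controls (-0.16 ± 0.10). In Cks2, Tpx2 and Foxm1, 3 of 20 mitosis members, they lay above both controls, as in 8.3% of all probe sets.

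**Figure D5:**
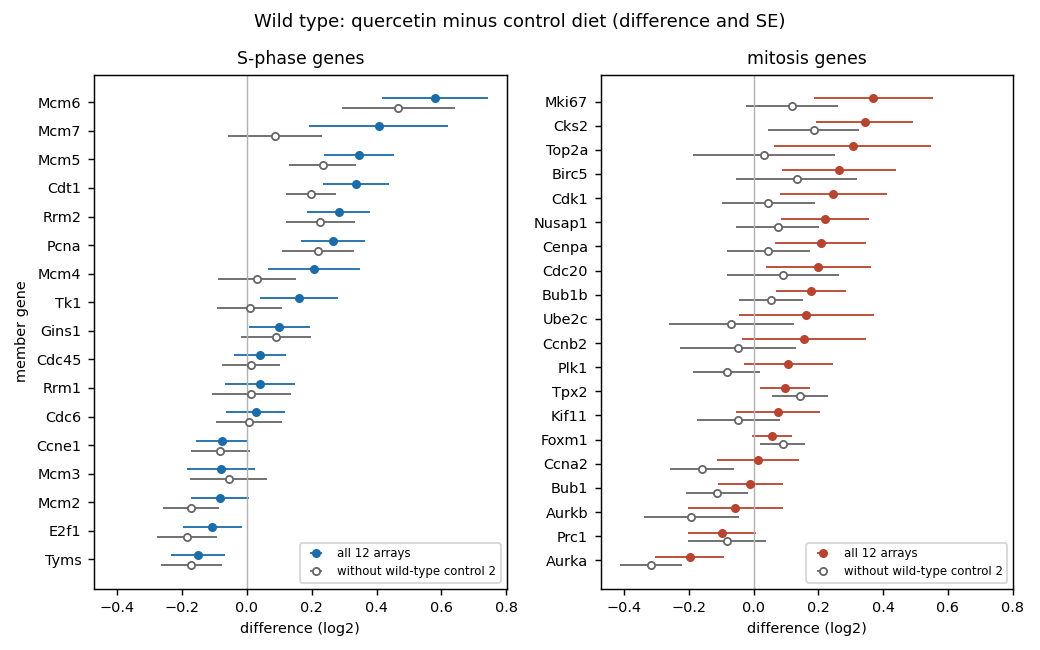
Difference between quercetin and control diet in wild-type mice for each member (log2, limma estimate with its SE as bars), with all 12 arrays (filled) and without wild-type control 2 (open), S-phase genes on the left and mitosis genes on the right. Leaving out that array moves the mitosis median from 0.16 to 0.04 and the S-phase median from 0.10 to 0.01, while Mcm6, Mcm5, Cdt1, Rrm2 and Pcna stay on the right.

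Markers of other cells and of gut position also differed in this comparison, mostly with overlapping scores. Of the scores below, only that of goblet cells did not overlap between the diets. Of 12 proximal small intestine genes 11 were lower on quercetin (score -0.05 to 0.74 in controls and -0.32 to 0.30 on quercetin), with a median of -0.26, and of -0.04 with 8 lower without wild-type control replicate 2. Of 13 villus enterocyte genes 11 were lower (score -0.05 to 0.48 and -0.34 to 0.13), and 6 without that array. Of 8 goblet cell genes 7 were lower (score 0.06 to 0.10 and -0.15 to 0.05), and all 8 without that array, and the scores did not overlap either way. All 8 ileal segment genes were higher (score -0.22 to 0.0017 and 0.0017 to 0.32), and 7 without that array. Of 9 B cell genes 6 were higher (score -0.20 to 0.13 and 0.09 to 0.34), and 7 without that array. Of 11 crypt stem cell genes 7 were higher (score -0.23 to 0.11 and -0.10 to 0.13), with a median of 0.09, and of 0.0033 with 6 higher without it. Their part in the members' differences was not tested.

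Other genes of the same pathway gave no call either. Of 46 further replication genes 40 were measured. On quercetin 28 were higher in wild type and 12 were lower (median 0.10), and 22 were higher without wild-type control replicate 2, with a median of 0.03. Their smallest p-values belonged to Cdc7, the kinase that fires origins (-0.25 ± 0.07, adjusted p = 0.278), Tipin, of the fork protection complex (0.28 ± 0.08, adjusted p = 0.282), and the repair gene Brca1 (-0.28 ± 0.09, adjusted p = 0.301). Of 48 further mitosis genes 43 were measured: 27 were higher, 15 lower, and the median was 0.03. That list turned without wild-type control replicate 2, to 19 higher, 24 lower and a median of -0.0067. The phosphatase gene Cdc25b (-0.19 ± 0.08), the chromosome motor Kif4 (-0.17 ± 0.08) and Cks1b, a relative of Cks2 (0.33 ± 0.18, and 0.16 ± 0.17 without that array), led that list. Of 38 genes of cell cycle control 32 were measured: 20 were higher, 12 lower, and the median was 0.03, and without that array 14 were higher, 18 lower, with a median of -0.01. They were led by Cdkn2b, the inhibitor p15 of cyclin D kinases (0.30 ± 0.09, adjusted p = 0.296), Wee1, the kinase that holds back Cdk1 (-0.16 ± 0.07), and E2f5 (0.24 ± 0.10).

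The same comparison of diets was made in POR-null mice. No member passed (adjusted p from 0.711), and 0% of all probe sets did. The S-phase median was 0.06 with 14 of 17 members higher, and the mitosis median 0.01 with 11 of 20 higher, where 54.5% of all probe sets were higher and their median was 0.01. The S-phase median lay below the wild-type 0.10 with all arrays and above the wild-type 0.01 without wild-type control replicate 2. Gins1, a subunit of the GINS complex of the active helicase, alone had an unadjusted p under 0.05, as had 3.64% of all probe sets on the higher side, and alone had groups that did not overlap, as 7.45% had. It read 5.60, 5.52 and 5.43 on control and 5.80, 5.84 and 5.66 on quercetin, a difference of 0.25 ± 0.09 (adjusted p = 0.711). In wild type it read 5.79, 5.60 and 5.48 on control and 5.87, 5.62 and 5.68 on quercetin, with the groups overlapping.

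Of the other POR-null differences, those with the smallest p were 0.18 ± 0.11 for Rrm1, the large subunit of ribonucleotide reductase, 0.15 ± 0.10 for Mcm3 and 0.11 ± 0.08 for Tyms. Among the mitosis members they were -0.24 ± 0.15 for Cks2, -0.13 ± 0.11 for Bub1b, 0.12 ± 0.10 for the checkpoint kinase gene Bub1 and 0.18 ± 0.16 for Cdc20, the activator of the anaphase-promoting complex. Adjusted p-values of these 7 ran from 0.807 to 0.863. Further replication genes were higher in 26 of 40 and further mitosis genes in 35 of 43 (median 0.07). The flap endonuclease Fen1, which processes lagging-strand fragments (0.25 ± 0.07, adjusted p = 0.658), and the checkpoint kinase Ttk (0.26 ± 0.10, adjusted p = 0.720) had the smallest p in each list. Among control genes 14 of 32 were higher, and Cdc25a, the phosphatase that activates Cdk2 (-0.24 ± 0.11), had the smallest p.

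Cell type markers moved with the POR-null comparison. Of 9 B cell genes 8 were lower on quercetin (score -0.13 to 0.27 on control and -0.31 to -0.19 on quercetin), and 6 of 6 Paneth cell genes were higher (score -0.24 to 0.10 and 0.15 to 0.39). The score of 13 villus enterocyte genes, 9 of them higher, ran from -0.18 to -0.0017 on control and from 0.0037 to 0.12 on quercetin. That of 12 proximal small intestine genes, 8 of them higher, ran from -0.17 to -0.12 and from -0.05 to 0.21. None of these 4 scores overlapped between the diets, and their part in the members' differences was not tested.

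Genotype on the control diet showed no common direction in S phase and leaned on 1 array in mitosis. The S-phase median, POR-null minus wild type, was -0.04 with 8 of 17 members higher, and the mitosis median was 0.04 with 13 of 20 higher and 5 lower, where 43.4% of all probe sets were higher and 55.4% lower. Without wild-type control replicate 2 the medians were -0.08 and -0.10, with 5 of 17 and 5 of 20 higher against 43.2% of all probe sets, so the mitosis median turned. No member passed, nor did any probe set (0% of all). Bub1b alone was higher at an unadjusted p under 0.05, as were 4.53% of all probe sets, and its groups did not overlap, as in 5.15% of all. Wild-type arrays read 6.14, 5.76 and 6.12, POR-null arrays 6.52, 6.19 and 6.30, a difference of 0.33 ± 0.11 (adjusted p = 0.375), and 0.21 ± 0.10 without wild-type control replicate 2 (adjusted p = 0.555).

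Of the S-phase members the smallest p-values on the control diet belonged to Mcm6 (0.32 ± 0.16, adjusted p = 0.516), Cdc6 (0.15 ± 0.09), Tyms (-0.13 ± 0.08) and Mcm5 (0.16 ± 0.11). Without wild-type control replicate 2 Mcm6 was at 0.21 ± 0.17 and Mcm5 at 0.04 ± 0.10. After Bub1b the mitosis members with the smallest p were Bub1 (-0.18 ± 0.10), Birc5, the survivin subunit of the chromosomal passenger complex (0.25 ± 0.18), and Cks2 (0.18 ± 0.15). Birc5 was at 0.12 ± 0.19 and Cks2 at 0.02 ± 0.14 without that array. The 2 members lower at an unadjusted p under 0.05 without it were Bub1 (-0.28 ± 0.10, adjusted p = 0.492) and E2f1, the activator of S-phase genes (-0.20 ± 0.09, adjusted p = 0.551), as were 5.3% of all probe sets. Of the further lists, 25 of 40 replication, 19 of 43 mitosis and 19 of 32 control genes were higher, against 14, 11 and 12 without that array. They were led by Brca1 (-0.25 ± 0.09, adjusted p = 0.391), Kif4 (-0.17 ± 0.08) and Cdkn2b (0.31 ± 0.09, adjusted p = 0.338), of which Cdkn2b was at 0.29 ± 0.10 without it.

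Smooth muscle genes were higher in POR-null mice on the control diet in 11 of 12, with and without that array (score -0.71 to -0.15 on the wild-type arrays and -0.53 to 0.97 on the POR-null arrays). Goblet cell genes were lower in 8 of 8, and in 7 without it, and their scores did not overlap (0.06 to 0.10 and -0.10 to -0.0015). Villus enterocyte genes were lower in 10 of 13, with and without it, and proximal small intestine genes in 9 of 12, and in 8 without it. Their part in the members' differences was not tested.

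On quercetin the POR-null arrays were lower for 9 of 17 S-phase members (median -0.02) and 15 of 20 mitosis members (median -0.05), where 43.8% of all probe sets were lower. No member passed, and 0% of all probe sets did. Rrm2 and Cks2 were lower at an unadjusted p under 0.05, as were 3.14% of all probe sets. Rrm2 read 6.16, 6.17 and 6.38 on the wild-type arrays and 5.79, 6.03 and 6.03 on the POR-null arrays, a difference of -0.29 ± 0.10 (adjusted p = 0.583). Its 2 other probe sets differed by -0.29 and 0.02, so they did not share a sign. For Cks2 the wild-type arrays read 8.14, 8.52 and 8.12 and the POR-null arrays 7.66, 7.88 and 8.02, a difference of -0.41 ± 0.15 (adjusted p = 0.633). Both had groups that did not overlap, as had Cdt1 (-0.17 ± 0.10), Mki67 (-0.27 ± 0.18) and Cdc45 (-0.07 ± 0.08), together 5 of 37 members, against 5% of all probe sets on the lower side. For Cdc45, the wild-type arrays at 5.67 to 5.69 lay just above the POR-null arrays at 5.54 to 5.66. The differences were 0.19 ± 0.10 for Mcm3, -0.18 ± 0.11 for Mcm5, 0.12 ± 0.11 for Aurka and -0.22 ± 0.14 for Nusap1, a spindle-associated protein, with adjusted p from 0.735 to 0.836.

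The B cell genes moved with this comparison: 9 of 9 were lower in POR-null (median -0.39), and their score ran from 0.09 to 0.34 in wild type and from -0.31 to -0.19 in POR-null. Ileal segment genes were lower in 7 of 8 (score 0.0017 to 0.32 and -0.23 to -0.05), smooth muscle genes higher in 11 of 12 and villus enterocyte genes higher in 10 of 13. Their part in the lower levels of Rrm2, Cks2 and Mki67 was not tested. Of the further lists, 20 of 40 replication, 22 of 43 mitosis and 16 of 32 control genes were lower. Slbp, which binds histone transcripts in S phase (-0.30 ± 0.09, adjusted p = 0.524), and Cdc25a (-0.37 ± 0.11) had the smallest p in their lists. Cdkn1a, the kinase inhibitor p21, differed by -0.21 ± 0.07 (adjusted p = 0.596).

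The test of whether the diet difference depended on genotype, the POR-null difference minus the wild-type one, passed for no member and for 0% of all probe sets. Its median was -0.06 over the S-phase members, with 7 of 17 above zero, and -0.09 over the mitosis members, with 4 of 20 above zero, against 57% of all probe sets. Without wild-type control replicate 2 both turned, to 0.095 (9 of 17 above zero) and 0.06 (12 of 20), where 57% of all probe sets were. The members with an unadjusted p under 0.05 were Mcm6 (-0.55 ± 0.23, adjusted p = 0.452), Mcm5 (-0.33 ± 0.15, adjusted p = 0.481) and Cks2 (-0.58 ± 0.21, adjusted p = 0.431) on the lower side, as 4.24% of all probe sets were, and Tyms (0.26 ± 0.12, adjusted p = 0.481) on the higher side, as 6.07% were. The set of members so marked changed without that array. Mcm6, at -0.44 ± 0.23 (adjusted p = 0.558), and Mcm5, at -0.22 ± 0.14 (adjusted p = 0.606), no longer were. Cks2, at -0.43 ± 0.19 (adjusted p = 0.497), alone was on the lower side, as 3.73% of all probe sets then were. Tyms, at 0.28 ± 0.13 (adjusted p = 0.505), and Aurka, at 0.33 ± 0.13 (adjusted p = 0.465), were on the higher side, as 6.09% were. The chosen Tyms probe set lay below the lower quartile of levels, and with all arrays its 2 other probe sets were at 0.0067 and 0.07. For Cdt1 the interaction was -0.23 ± 0.14, and -0.09 ± 0.10 without that array, for Bub1b -0.31 ± 0.15 and -0.19 ± 0.13, for Mki67 -0.47 ± 0.26 and -0.22 ± 0.19, and for Birc5 -0.36 ± 0.25 and -0.23 ± 0.25. The further lists were led by Slbp (-0.43 ± 0.13, adjusted p = 0.373), Ttk (0.33 ± 0.14, adjusted p = 0.464) and E2f5 (-0.40 ± 0.14, adjusted p = 0.426). The 95% intervals with all arrays were wide, from -1.05 to -0.06 for Mcm6 and from -1.04 to -0.13 for Cks2, and for most members they spanned zero.

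Several of these values rest on the chosen probe set. Of the 21 members with more than 1 probe set, 9 had another with the opposite sign in the wild-type comparison of diets. Mcm6 and Cks2 were among those whose probe sets shared a sign, the other Cks2 probe set at 0.31 ± 0.13, and at 0.16 ± 0.12 without wild-type control replicate 2. In the POR-null comparison of diets 11 of the 21 had a probe set of opposite sign, and in the interaction 11. For genotype the count was 8 on quercetin. On the control diet it was 15, counting Cdc20 and Tpx2, whose chosen probe sets differed by 0. E2f1 was among these, its other probe set at 0.07 against -0.12.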

How the data were processed

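RNA from ileal scrapings of 12 pools, each of 3 mice, was hybridised to Affymetrix 430A arrays. The deposited values are log2 levels, which the authors made from the scans. MAS5 and RMA are named in the submitters' processing notes, without a role or a version. The values were used as deposited; that their scale is log2 was read from their range. The 64 array controls among 22690 probe sets were not used. The platform annotation gave 1 symbol to 20380 of the 22626 tested and several to 691, and 1555 had none.

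Group means were fitted over 12 arrays and 22626 probe sets by lmFit and eBayes of limma 3.58.1 (R 4.3.3), and p-values were adjusted by Benjamini-Hochberg, with a threshold of 0.05. The script was tested on simulated data: in the wild-type diet comparison over 22626 probe sets it called 79.4% of changes of 0.5 and 98.6% of changes of 1. The changes were placed in probe sets drawn at random, with independent noise and no deviating array. The members varied more than most probe sets (median residual SD 0.20 for mitosis and 0.13 for S phase, against 0.11). These rates were thus not measured for the members. The members and gene lists were chosen with earlier results of these data known, so lists are described by counts and medians without a test. In each comparison the 4 S-phase and 4 mitosis members and up to 3 genes of each further list with the smallest p are named with their differences, as are members needed to complete a small count, chosen after their values were seen. Alternatives were quantile normalization, median centring, filters on dim probe sets, array weights, a trended and robust eBayes, fits of only the arrays compared, a block for the replicate number, averaging a gene's probe sets, a threshold of 0.1, scores by the median or from scaled members, and leaving out each array. Promoters came from RefSeq (GRCm38.p6), and figures were drawn with Python 3.11.15 and matplotlib 3.10.9.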

Additional observations from a re-analysis of the deposited data

How the results depend on the processing

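No member passed at an adjusted p of 0.05 in any of the 5 comparisons under any alternative run, nor at a threshold of 0.1 in the fit to all arrays as reported. Named members came nearest in the wild-type comparison of diets without wild-type control replicate 1, with adjusted p-values of 0.0842 for Mcm6 (range over alternatives 0.0842 to 0.563) and 0.0953 for Cdt1 (0.0953 to 0.563). Without probe sets below the median level, which left 10 S-phase members, the S-phase median was 0.24 in wild type and -0.18 for the interaction. Leaving out 1 array each gave S-phase medians from 0.01 to 0.18 and mitosis medians from 0.04 to 0.28 in wild type, and from -0.125 to 0.095 for the S-phase interaction, positive without wild-type control replicate 2. The S-phase score of that array was -0.12 by the median of the members. All other alternatives moved medians and scores by less than the scores' pooled SD within groups (195 of 198 medians, 143 of 144 scores). That SD, 0.10 for S phase and 0.16 for mitosis, includes wild-type control replicate 2. By it the mitosis median for genotype on the control diet counted as kept, though it turned from 0.04 to -0.10. Some medians could not move: those with an array outside the comparison left out, only the compared arrays fitted, or the replicate block.

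Equal replicate numbers were not taken to pair the arrays: deviations of same-numbered arrays correlated between -0.18 and 0.16 over 18 pairs, 3 of them above 0.1, and 5 of 12 arrays were closest to their own number. With the replicate block 0 members passed in each comparison, as without it. Each replicate number occurs once in every group, so the block could not change the differences. The wild-type medians of 0.10 and 0.16 were thus the same by design.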
